A study of Mus musculus with 6 samples.

Results

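The potassium channel genes of the mouse, here every gene whose symbol is Kcn followed by letters and a number, numbered 92 of the 54429 genes of a count table of aortic endothelial cells (EC). Each gene entered by its symbol alone, and the antisense transcript Kcnq1ot1 was left out. The set itself was chosen with earlier results of these data known. The cells were purchased primary aortic EC of adult wild-type C57BL/6 mice in culture. All 6 libraries came from cells that had received a lentiviral vector, and the vector was the difference between the conditions. The 3 Meis1-OE libraries came from EC given a vector that overexpressed Meis1, a homeobox transcription factor, and the 3 YFP-CTRL libraries from EC given the control vector. EC were plated at 100000 per well, exposed to vector for 48 h and sorted at 72 h as cells positive for YFP, CD31 and VE-cadherin, and they were then expanded to confluency before RNA was taken. The cells measured had therefore kept endothelial surface markers and had grown in a dish, without flow or neighbouring smooth muscle. Libraries are named by the letters A, B and C they carry in the table, and the same letter in both conditions does not mark a pair. Where 3 values of a gene are given for a condition, they are those of libraries A, B and C in this order.

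Potassium channels let potassium leave or enter the cell and so set the membrane potential, which in EC controls the driving force for calcium entry. Voltage-gated channels open on depolarization, calcium-activated channels open when calcium binds calmodulin or the channel itself, inward rectifiers hold the resting potential, and tandem-pore (K2P) channels leak potassium at rest. In arterial endothelium, the small- and intermediate-conductance calcium-activated channels SK3 (Kcnn3) and IK1 (Kcnn4) are known for the hyperpolarization that relaxes the underlying smooth muscle, and Kir channels of the Kcnj2 type for the resting potential and the response to flow.

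What the pore-forming members shared beyond their name was the selectivity filter, the stretch through which potassium passes. The coding sequence of each gene, from the GENCODE vM1 annotation of build NCBIM37, was searched for 5 codons in a row that read threonine or serine, then valine, isoleucine, alanine, threonine or leucine, then glycine, then tyrosine, phenylalanine or leucine, then glycine. The signature was found in 77 of the 92 members (83.7%) and in 327 of 22502 other coding genes (1.45%). It occurred 2 times in each of the 14 K2P genes, once in every other pore-forming member, and in none of the 15 auxiliary genes, which are the 11 voltage-gated beta and accessory subunits and the 4 BK beta subunits. The stretches below, 45 bases of coding sequence each, are shown for the pore-forming members that differed between the conditions, for the abundant members Kcnh2, Kcnq1 and Kcnk2, and for Kcnn4, the partner of Kcnn3 in endothelium. Capitals mark the 15 bases of the signature.
Kcnh2: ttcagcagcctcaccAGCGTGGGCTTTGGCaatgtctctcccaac
Kcnq1: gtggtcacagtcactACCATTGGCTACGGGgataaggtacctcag
Kcnn3: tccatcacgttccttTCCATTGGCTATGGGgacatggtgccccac
Kcnn4: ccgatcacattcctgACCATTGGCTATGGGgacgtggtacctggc
Kcnj2: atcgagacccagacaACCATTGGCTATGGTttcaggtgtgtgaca
Kcnk2, first pore: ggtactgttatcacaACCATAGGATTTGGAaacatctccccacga
Kcnk2, second pore: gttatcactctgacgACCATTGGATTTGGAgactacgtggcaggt
Kcnk10, first pore: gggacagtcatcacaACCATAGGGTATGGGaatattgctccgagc
Kcnk10, second pore: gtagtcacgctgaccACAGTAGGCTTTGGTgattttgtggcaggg
Set base for base against the stretch of Kcnn3, that of Kcnn4 was identical at 35 of 45 bases, that of Kcnq1 at 30, that of Kcnh2 at 23 and that of Kcnj2 at 19. The first and second pores of Kcnk2 were identical to it at 20 and 24 bases, and both pores of Kcnk10 at 22. The auxiliary member that differed, Kcnab2, has no pore and no such stretch.

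The libraries held between 34176592 counts (YFP-CTRL library A) and 47956569 counts (YFP-CTRL library C). Values are CPM, the usual unit in which the count of a gene is set against the total of its library, after scaling by the trimmed mean of M values (TMM), and 3 counts, taken as the limit of detection, corresponded to 0.0648 to 0.0883 CPM. Meis1 was counted 135325, 157828 and 149221 times in the Meis1-OE libraries against 39, 58 and 85 times in the YFP-CTRL ones, a log2 fold change of 11.07. Among markers of EC, Pecam1 was at 910 ± 100 CPM in Meis1-OE EC against 984 ± 199 CPM in YFP-CTRL EC (mean ± SD, n = 3), and Cdh5 at 1316 ± 135 and 2143 ± 436 CPM. All 14 endothelial markers passed the filter on low counts, of which 2 were higher in edgeR's test (Vwf and Cldn5, log2 fold changes 3.12 and 1.81) and 1 was lower (Tek, -0.78), DESeq2 adding Sox17 as higher and Cdh5 and Kdr as lower, and their summed level was 5740 to 6962 CPM in Meis1-OE and 6144 to 8423 CPM in YFP-CTRL libraries. Over the tested genes, log2(CPM + 1) of YFP-CTRL library C correlated at 0.986, 0.983 and 0.983 with the Meis1-OE libraries. Its correlations with YFP-CTRL libraries A and B were 0.967 and 0.982. The YFP-CTRL libraries also stood apart from each other in proliferation genes. The mean log2(CPM + 1) of 15 such genes was 6.52, 6.52 and 6.56 in the Meis1-OE libraries, and 4.34, 5.32 and 6.48 in the YFP-CTRL ones, so that only YFP-CTRL library C came near the Meis1-OE libraries. In RNA of a whole culture, fewer cells with a transcript and less transcript per cell cannot be told apart.

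Most potassium channel genes were not detectable in these EC. In 61 of the 92 members no library held more than 3 counts, and 27 of these had 0 counts in all 6 libraries, which allows up to 3 counts in any of them. Another 13 members exceeded 3 counts in at least 1 library but did not pass the filter on low counts, 6 passed it with a mean under 1 CPM in both conditions, and 12 reached a mean of 1 CPM in at least 1 condition and are called expressed. The threshold of 1 CPM is arbitrary. At 0.5 CPM 15 members, and at 2 CPM 6 members, would be called expressed.

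**Figure D1:**
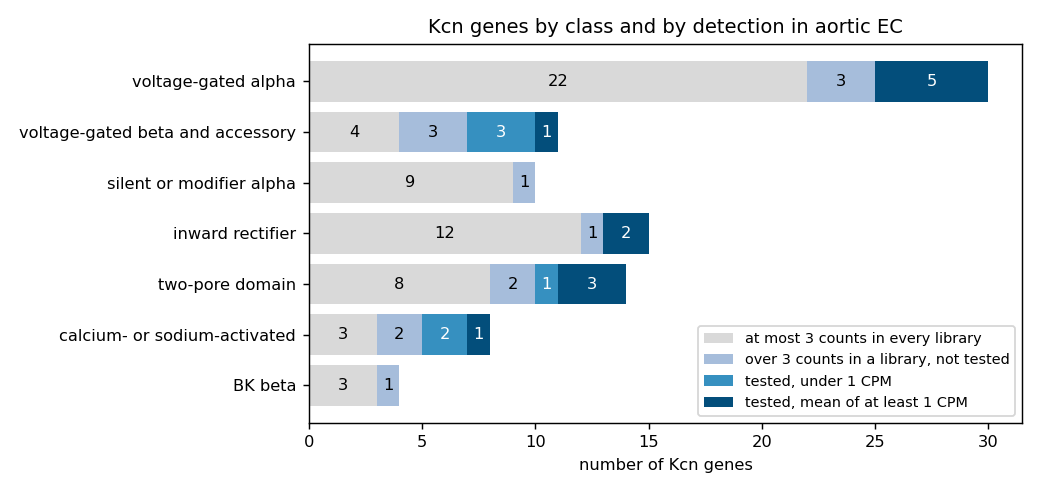
Number of Kcn genes (horizontal axis) in each class of channel, divided by how they were detected in the 6 libraries. The voltage-gated alpha class held 5 of the 12 expressed members, and 22 of its 30 members had at most 3 counts in every library; the label two-pore domain stands for K2P genes.

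By class, 5 of 30 voltage-gated alpha subunits were expressed (Kcnh2, Kcnq1, Kcnq3, Kcnh1 and Kcnd1), and all 8 Kcna and all 4 Kcnc genes, which encode the Shaker and Shaw types, stayed at or under 2 counts. None of the 10 silent or modifier subunits (Kcnf, Kcng, Kcns, Kcnv), which form no channel alone, was tested, and Kcng4 with 4 counts in Meis1-OE library C was the highest. Of 15 inward rectifiers 2 were expressed (Kcnj2 and Kcnj14), and Kcnj8 and Kcnj11, the pores of ATP-sensitive channels, had 0 counts in every library. Of 14 K2P genes 3 were expressed (Kcnk2, Kcnk10 and Kcnk6) and Kcnk3, the acid-sensitive TASK-1, was tested at a lower level. Of 8 calcium- or sodium-activated genes Kcnn3 was expressed, reaching 1 CPM in the Meis1-OE condition alone, and Kcnn4 and Kcnn2 were tested at lower levels. Kcnma1, the BK channel of smooth muscle, had between 2 and 6 counts per library, and the 4 BK beta subunits at most 4, Kcnmb1 having 0 in all libraries. Of the 11 voltage-gated beta and accessory subunits Kcnab2 was expressed, and Kcnab1, Kcnab3 and Kcnip2, which bind Shaker- and Shal-type channels, were tested below 1 CPM. Among members detected but not tested, Kcnd3 reached 23 counts, Kcne3 15, Kcnn1 15 and Kcnk7 10, and Kcne2, Kcng4, Kcnh3, Kcnip4, Kcnj12, Kcnk4, Kcnma1 and Kcnmb4 between 4 and 6.

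To order the genes by level, CPM was divided by the length of exon in kb. In YFP-CTRL EC, Kcnh2, the ERG channel of the rapid delayed rectifier current, stood first with 12.5 CPM per kb, before Kcnq1, the channel of the slow delayed rectifier current, with 8.92, and Kcnk2, the stretch-sensitive K2P channel TREK-1, with 2.71. Kcnj14 followed with 1.003 CPM per kb, and no other member exceeded 0.562 (Kcnk10). Coding length, tried for the expressed members after the data were seen, still put Kcnh2 (16.9), Kcnq1 (13.4), Kcnk2 (7.68) and Kcnj14 (2.03) first. Kcnk6 (1.94) and Kcnj2 (1.15) then stood above Kcnk10 (1.07), so places below Kcnj14 depend on the length used. Neighbours in the order by exon length overlapped in their 3 libraries at every step but the one from Kcnab2 to Kcnab1, so the exact order is not resolved in YFP-CTRL EC. In Meis1-OE EC the first 3 were the same, with 12.5, 6.27 and 3.75 CPM per kb, and no overlap between neighbours. Kcnn3, last of the 18 tested members in YFP-CTRL EC with 0.0342 CPM per kb, was the fourth in Meis1-OE EC with 1.18 (1.003 to 1.54 over the libraries), and it overlapped neither Kcnk2 above it nor Kcnq3 below it. By exon length, Kcnj2 was the eighth in YFP-CTRL EC with 0.270 CPM per kb and the next to last in Meis1-OE EC with 0.0441.

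**Figure D2:**
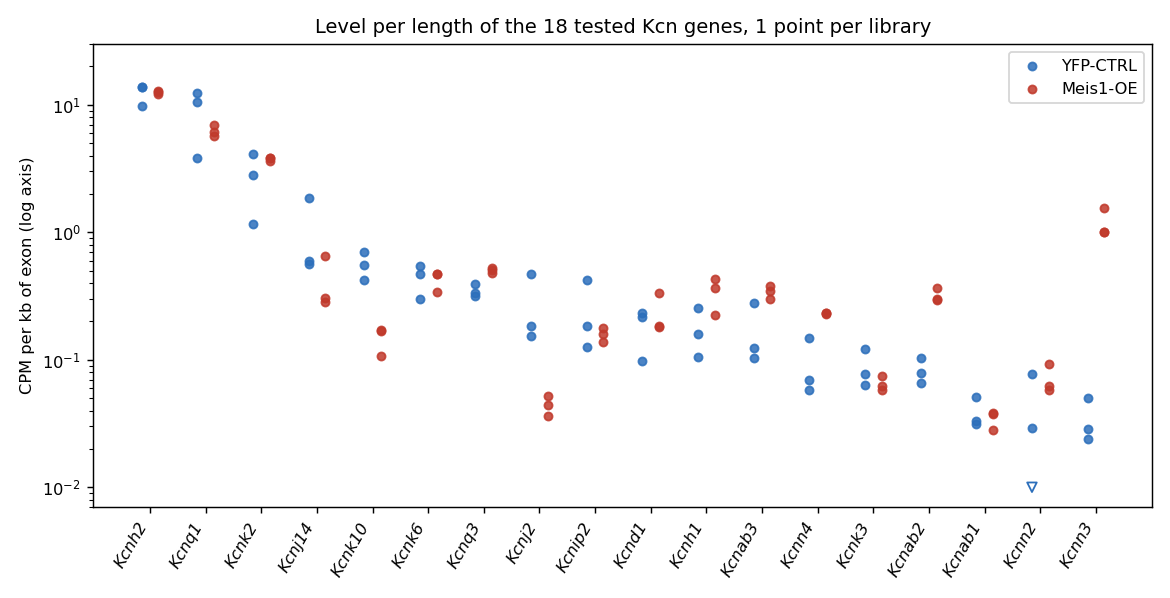
CPM per kb of exon on a log axis for the 18 tested Kcn genes, ordered by their mean in YFP-CTRL EC, with 1 point per library and an open triangle at the foot for Kcnn2 in YFP-CTRL library B, which had 0 counts. Kcnh2, Kcnq1 and Kcnk2 lead in both conditions, and Kcnn3 moves from the last place (0.0342) to the fourth (1.18).

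Kcnh2, Kcnq1 and Kcnk2 together made up 80.3% to 82.7% of the summed level per kb of all 92 members in Meis1-OE libraries and 75.0% to 88.5% in YFP-CTRL libraries. Kcnn3 made up 3.51% to 5.59% of that sum in Meis1-OE libraries and 0.0726% to 0.153% in YFP-CTRL libraries. Summed over a class, in CPM, the calcium- or sodium-activated genes stood at 4.31, 5.77 and 4.12 in the Meis1-OE libraries against 1.09, 0.490 and 0.858 in the YFP-CTRL ones, without overlap. Kcnn3 alone was at 3.11, 4.74 and 3.09 CPM in the Meis1-OE libraries, so this is mostly the difference of Kcnn3 and not of the class. The inward rectifiers stood at 2.08, 1.15 and 1.25 CPM in the Meis1-OE libraries against 6.12, 4.19 and 2.44 CPM in the YFP-CTRL ones, also without overlap. Most of these sums came from Kcnj14 and Kcnj2. Kcnj14, which by itself overlapped between the conditions, held 4.89 of the 6.12 CPM in YFP-CTRL library A. The voltage-gated alpha subunits (83.5 to 89.9 against 62.6 to 108 CPM) and the K2P genes (15.2 to 16.8 against 7.27 to 19.6 CPM) overlapped between the conditions.

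The conditions were compared with edgeR's quasi-likelihood test over 16065 genes, with Benjamini-Hochberg adjustment over all of them. At an adjusted p under 0.05, 2 of the 18 members tested were higher with Meis1-OE, Kcnn3 and Kcnab2, and 2 were lower, Kcnj2 and Kcnk10. This is 11.1% of the tested members in each direction, while 4.14% of all tested genes were higher and 2.73% were lower. These shares rest on 2 genes each, so they describe the tested members and are no measure of the 92. Some members also passed the filter on low counts mainly through the condition in which they were high. These were Kcnn3 and Kcnn4, and in part Kcnn2, through Meis1-OE libraries, and in part Kcnj2 through YFP-CTRL libraries. At an unadjusted p under 0.05 there were 7 members, 5 higher and 2 lower, where 12.8% of all tested genes were higher and 13.4% lower. The 3 Meis1-OE libraries all lay above the 3 YFP-CTRL libraries for 5 members (27.8% of those tested, against 17.2% of all tested genes) and all below for 2 (11.1%, against 15.9%). Kcnn3 and Kcnn4 are among the 5 and Kcnj2 is among the 2. These shares and the counts at an unadjusted p thus carry the same limit of the filter. The log2 fold changes were positive for 10 members and negative for 8, with a median of 0.18, and the median of all tested genes was 0.01. Scaling by library totals moved that median of all genes to 0.15 and left the same 4 members past the threshold.

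**Figure D3:**
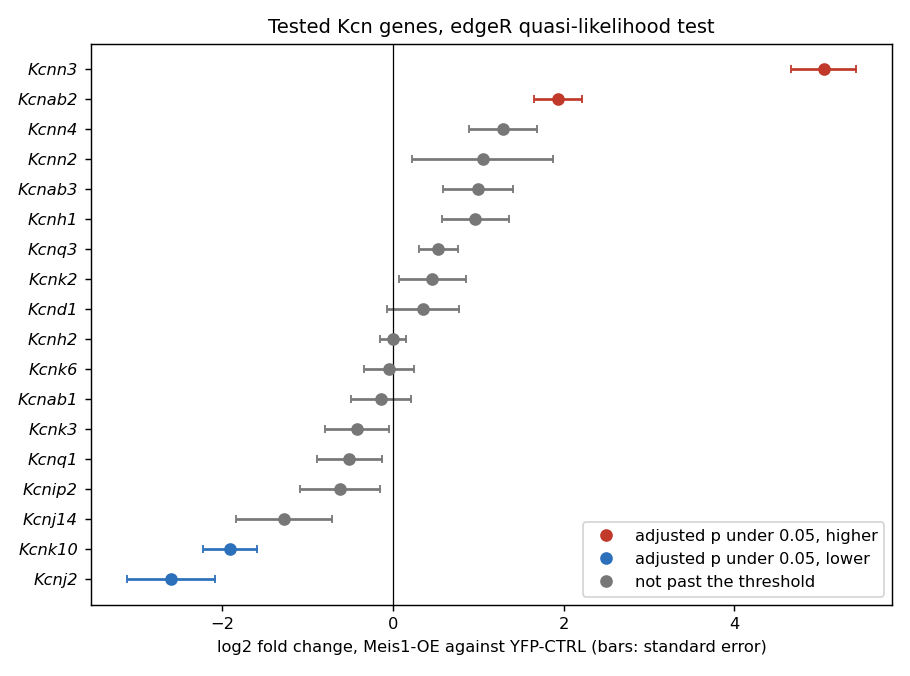
Log2 fold change of Meis1-OE against YFP-CTRL EC for the 18 tested Kcn genes, with the standard error as bars and colour for an adjusted p under 0.05 (edgeR). Kcnn3 (5.05) and Kcnab2 (1.93) lie to the right, Kcnj2 (-2.60) and Kcnk10 (-1.91) to the left, and Kcnh2 sits on the line of no change.

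Kcnn3 encodes SK3, a calcium-activated channel of small conductance that opens through bound calmodulin. The gene lies on chromosome 3, 89520164 to 89672494 (GRCm38.p6), and overlaps no other annotated gene. It was counted 142, 215 and 143 times in the Meis1-OE libraries against 3, 3 and 7 times in the YFP-CTRL ones. The YFP-CTRL libraries were thus at or just over the limit of detection, and every Meis1-OE library lay far above each of them. The mean was 3.64 ± 0.947 CPM in Meis1-OE EC against 0.105 ± 0.0429 CPM in YFP-CTRL EC (mean ± SD, n = 3), which gave a log2 fold change of 5.05 (standard error 0.38, adjusted p = 0.00177 in edgeR's test). With 500 counts against 13 over the libraries of each condition, the ratio after scaling by the TMM-adjusted library totals was 33.6, with an exact 95% interval of 19.5 to 63.6 that covers counting error only. Kcnn3 passed the threshold in each of the 13 alternative settings in which it could be tested, with log2 fold changes of 4.65 to 5.44 and adjusted p values of up to 0.0172. It was not tested where at least 10 counts were required in every library.

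Of the other calcium-activated members, those tested did not pass the threshold. Kcnn4, the intermediate-conductance channel IK1, is described because it is the partner of Kcnn3 in endothelium, a choice made after its values were seen. It was counted 27, 26 and 27 times in the Meis1-OE libraries against 6, 6 and 17 times in the YFP-CTRL ones. No Meis1-OE library overlapped a YFP-CTRL library, but YFP-CTRL library C, the one with the high proliferation score, held the highest count of its condition. Kcnn4 showed a log2 fold change of 1.29 (standard error 0.40, adjusted p = 0.101 in edgeR's test), and it was 1.82 with an adjusted p of 0.0134 without YFP-CTRL library C. Leaving out that library raised the calls over all genes from 665 higher and 438 lower to 2717 higher and 2498 lower. Kcnn2, the channel SK2, was counted between 10 and 16 times in Meis1-OE and between 0 and 10 times in YFP-CTRL libraries (log2 fold change 1.05, standard error 0.82). This was 2.17 without YFP-CTRL library A, 0.46 without YFP-CTRL library B and 2.03 under the proliferation covariate. Kcnn1, the channel SK1, had 5 to 7 counts in Meis1-OE and 7 to 15 in YFP-CTRL libraries and was not tested. Per length of exon, Kcnn3 in Meis1-OE EC (1.18 CPM per kb) stood above Kcnn4 (0.230) and Kcnn2 (0.0711) without overlap, while in YFP-CTRL EC Kcnn3 (0.0342) stood below Kcnn4 (0.0920), also without overlap.

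**Figure D4:**
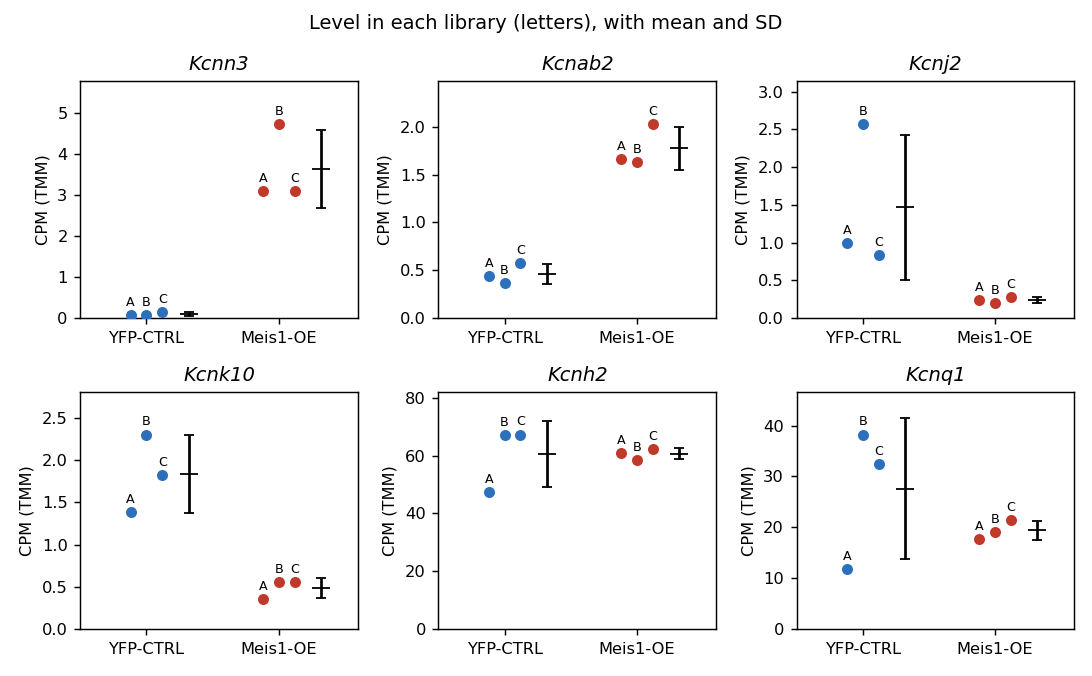
TMM-normalized CPM of the 4 Kcn genes past the threshold and of the most abundant members Kcnh2 and Kcnq1 in each library (points with the letter of the library), with the mean and SD as a dash with bars; each vertical axis starts at 0. The conditions do not overlap for Kcnn3, Kcnab2, Kcnj2 and Kcnk10, and they overlap for Kcnh2 and Kcnq1.

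Kcnab2 encodes a cytoplasmic beta subunit of Shaker-type channels with the fold of an aldo-keto reductase. The gene lies on chromosome 4, 152390744 to 152477549 (GRCm38.p6), and overlaps Nphp4, and reads of overlapping genes may not have been separated, since use of strand in counting is not given in the sources used here. It was counted 76, 74 and 94 times in the Meis1-OE libraries against 15, 15 and 26 times in the YFP-CTRL ones, with every Meis1-OE library above every YFP-CTRL library. The mean was 1.77 ± 0.222 CPM in Meis1-OE EC against 0.460 ± 0.104 CPM in YFP-CTRL EC (mean ± SD, n = 3), a log2 fold change of 1.93 (standard error 0.28, adjusted p = 0.0116 in edgeR's test). The adjusted p was 0.0721 without Meis1-OE library B or without Meis1-OE library C, 0.0547 without YFP-CTRL library B and 0.0518 when the proliferation score entered as a covariate, with log2 fold changes of 1.72 to 1.996. The Kcna genes whose products this subunit binds were at or under 2 counts in every library of both conditions. Its relative Kcnab3 was counted 39, 45 and 50 times in the Meis1-OE libraries against 12, 12 and 36 times in the YFP-CTRL ones, again with YFP-CTRL library C nearest to the Meis1-OE libraries. Its log2 fold change of 1.001 (standard error 0.41) had an adjusted p of 0.178, and of 0.0144 without YFP-CTRL library C. In that setting 2717 genes of all were called higher, against 665 with every library. Kcnab1 (log2 fold change -0.14, standard error 0.35) and the Shal-channel partner Kcnip2 (-0.62, standard error 0.47) overlapped between the conditions, and both changed sign without YFP-CTRL library A and under the proliferation covariate.

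Kcnj2 encodes Kir2-type inward rectifier channels, which hold the resting potential of EC. The gene lies on chromosome 11, 111066164 to 111076825 (GRCm38.p6), and overlaps no other annotated gene. It was counted 11, 9 and 13 times in the Meis1-OE libraries against 34, 105 and 38 times in the YFP-CTRL ones. All Meis1-OE libraries lay below all YFP-CTRL libraries, and YFP-CTRL library B stood well above the other two. The mean was 0.240 ± 0.0412 CPM in Meis1-OE EC against 1.47 ± 0.959 CPM in YFP-CTRL EC (mean ± SD, n = 3), a log2 fold change of -2.60 (standard error 0.52, adjusted p = 0.0316 in edgeR's test). Without YFP-CTRL library B it was -1.91 at an adjusted p of 0.0620, and without Meis1-OE library A, B or C the adjusted p was 0.118, 0.162 and 0.132. Under the proliferation covariate it was -2.38 at an adjusted p of 0.114. The other expressed inward rectifier, Kcnj14 of the same Kir2 group, was at 1.71, 0.749 and 0.799 CPM in the Meis1-OE libraries against 4.89, 1.495 and 1.56 CPM in the YFP-CTRL ones. Library A was the highest in both conditions and Meis1-OE library A overlapped the YFP-CTRL range, and the log2 fold change of -1.28 (standard error 0.56) had an adjusted p of 0.204. Leaving out YFP-CTRL library A moved it to -0.50, and the proliferation covariate to -0.23. Kcnj12, the remaining detected Kir gene, held 3 to 4 counts in Meis1-OE and 1 to 5 in YFP-CTRL libraries.

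Kcnk10 encodes TREK-2, a K2P leak channel that responds to stretch and lipids. The gene lies on chromosome 12, 98429432 to 98578213 (GRCm38.p6), and overlaps the predicted gene Gm40893. It was counted 16, 25 and 26 times in the Meis1-OE libraries against 47, 94 and 83 times in the YFP-CTRL ones, without overlap. The mean was 0.487 ± 0.119 CPM in Meis1-OE EC against 1.84 ± 0.460 CPM in YFP-CTRL EC (mean ± SD, n = 3), a log2 fold change of -1.91 (standard error 0.32, adjusted p = 0.0187 in edgeR's test). The adjusted p rose to 0.0698, 0.101 and 0.0884 without Meis1-OE library A, B or C and to 0.0771 without YFP-CTRL library B, with log2 fold changes of -1.71 to -2.02. With the proliferation score as a covariate Kcnk10 stayed past the threshold.

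Its close relative Kcnk2, the channel TREK-1, was more abundant per length of exon in both conditions and did not pass the threshold. It was at 13.0, 13.8 and 13.9 CPM in the Meis1-OE libraries against 4.21, 10.3 and 14.99 CPM in the YFP-CTRL ones. The Meis1-OE libraries lay close together inside the range of the YFP-CTRL libraries, which ran in the same order as their proliferation scores. Kcnk2 showed a log2 fold change of 0.46 (standard error 0.39, adjusted p = 0.492 in edgeR's test), or -0.32 under the proliferation covariate. Whether the log2 fold changes of Kcnk2 and Kcnk10 differ was not tested. Kcnk6, the channel TWIK-2, was at 1.77 ± 0.319 CPM in Meis1-OE EC against 1.82 ± 0.529 CPM in YFP-CTRL EC (mean ± SD, n = 3; log2 fold change -0.05, standard error 0.29), and its sign turned when the libraries were scaled by their totals. Kcnk3 stood at or under 0.466 CPM in every library (log2 fold change -0.43, standard error 0.38).

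**Figure D5:**
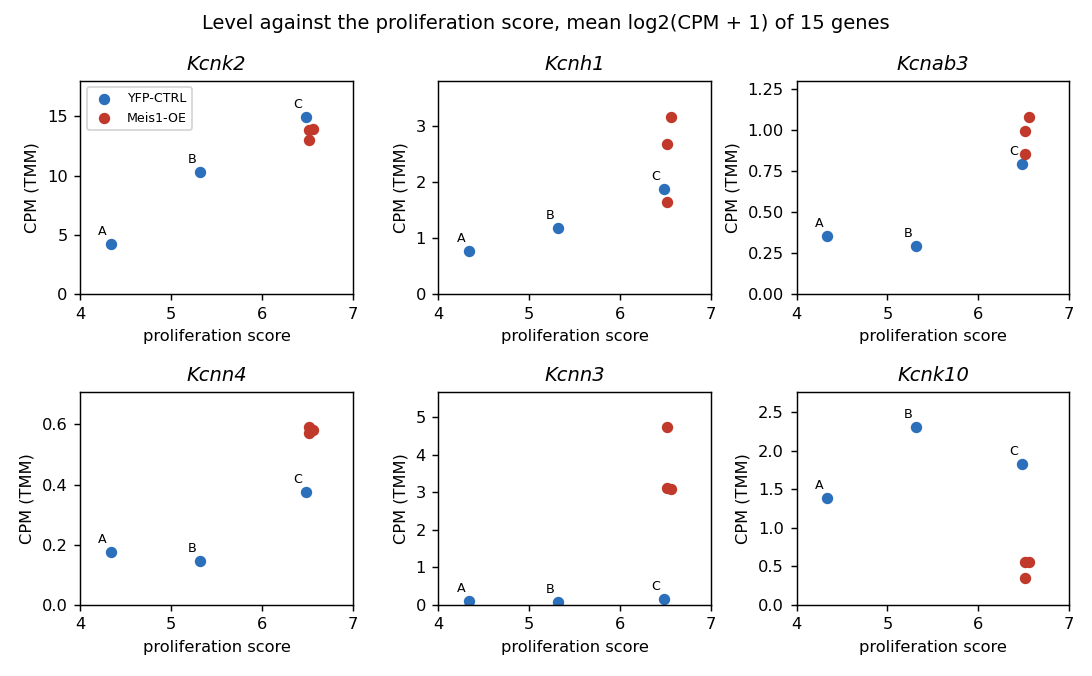
TMM-normalized CPM of 6 Kcn genes against the proliferation score of each library, the mean log2(CPM + 1) of 15 proliferation genes; YFP-CTRL points carry their letter and each vertical axis starts at 0. Kcnk2 in YFP-CTRL library C (14.99 CPM, score 6.48) lies beside the Meis1-OE libraries, while Kcnn3 and Kcnk10 in that library keep away from them.

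The abundant voltage-gated members did not pass the threshold. Kcnh2, on chromosome 5, 24319589 to 24351684 (GRCm38.p6), overlaps the predicted gene Gm15589. It was at 61.0, 58.6 and 62.3 CPM in the Meis1-OE libraries against 47.3, 67.2 and 67.4 CPM in the YFP-CTRL ones. The means were equal at 60.6 CPM, with an SD of 1.88 in Meis1-OE and 11.5 in YFP-CTRL EC (n = 3), and the log2 fold change was 0.00 with a standard error of 0.16, so its sign turned between settings. Kcnq1 on chromosome 7, 143106877 to 143427050 (GRCm38.p6), was at 17.6, 19.1 and 21.4 CPM in the Meis1-OE libraries against 11.9, 38.2 and 32.5 CPM in the YFP-CTRL ones. YFP-CTRL library A lay below all Meis1-OE libraries and the other two above them. Kcnq1 showed a log2 fold change of -0.51 (standard error 0.38, adjusted p = 0.434 in edgeR's test), or -0.89 with YFP-CTRL library A left out, at an adjusted p of 0.0210. Kcnq1 overlaps its antisense transcript Kcnq1ot1, and without strand the reads of the pair cannot be told apart. Kcnq1ot1 was at 29.8 ± 7.56 CPM in Meis1-OE EC against 28.6 ± 4.56 CPM in YFP-CTRL EC (mean ± SD, n = 3).

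Kcnq3, which in neurons forms the M current, was at 1.38, 1.26 and 1.34 CPM in the Meis1-OE libraries against 1.03, 0.882 and 0.836 CPM in the YFP-CTRL ones. Every Meis1-OE library lay above every YFP-CTRL library, but by little, and the log2 fold change of 0.53 (standard error 0.23) had an adjusted p of 0.199. Kcnh1, the EAG channel, was at 1.64, 2.69 and 3.17 CPM in the Meis1-OE libraries against 0.765, 1.18 and 1.87 CPM in the YFP-CTRL ones. Meis1-OE library A overlapped YFP-CTRL library C, and the log2 fold change of 0.97 (standard error 0.39) had an adjusted p of 0.174, or of 0.0382 without YFP-CTRL library C. Without that library 2717 genes of all were called higher, against 665 with every library. Kcnd1, a Shal-type channel, overlapped between the conditions (1.23 ± 0.469 and 0.965 ± 0.393 CPM, SD, n = 3) with a log2 fold change of 0.35 (standard error 0.42).

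The 300 bases around annotated starts, 250 before and 50 after, were taken from RefSeq (GRCm38.p6) for the members tested, of which 10 had a window and 18 windows were given. The letters TGACAG, the core bound by Meis proteins, were searched on both strands, as were TGATTNAT, the joint site of Pbx with Hox; neither pattern holds the other, though their ends can share letters. TGACAG was in 5 of the 18 windows, and in 19.2% of all 32851 windows of the table, and TGATTNAT was in 0 of 18 and in 3.22% of all. The 7 windows of the 4 members past the threshold held neither. The windows of the members with the largest rise and the largest fall are shown with that of Kcnn4, in which capitals mark the match, on the minus strand and 242 bases before the start.
Kcnn3, chr3:89519914-89520213, plus strand: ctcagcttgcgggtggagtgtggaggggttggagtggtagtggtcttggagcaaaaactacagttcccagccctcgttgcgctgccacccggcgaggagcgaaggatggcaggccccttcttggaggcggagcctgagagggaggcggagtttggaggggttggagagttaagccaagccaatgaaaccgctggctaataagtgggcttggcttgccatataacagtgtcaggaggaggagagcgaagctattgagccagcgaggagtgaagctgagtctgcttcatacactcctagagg
Kcnj2, chr11:111065914-111066213, plus strand: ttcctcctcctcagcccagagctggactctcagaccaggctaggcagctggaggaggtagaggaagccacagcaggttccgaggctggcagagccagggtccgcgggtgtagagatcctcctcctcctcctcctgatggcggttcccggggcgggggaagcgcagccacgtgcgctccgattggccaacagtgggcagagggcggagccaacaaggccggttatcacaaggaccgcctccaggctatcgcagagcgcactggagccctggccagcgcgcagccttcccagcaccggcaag
Kcnn4, chr7:24370013-24370312, plus strand: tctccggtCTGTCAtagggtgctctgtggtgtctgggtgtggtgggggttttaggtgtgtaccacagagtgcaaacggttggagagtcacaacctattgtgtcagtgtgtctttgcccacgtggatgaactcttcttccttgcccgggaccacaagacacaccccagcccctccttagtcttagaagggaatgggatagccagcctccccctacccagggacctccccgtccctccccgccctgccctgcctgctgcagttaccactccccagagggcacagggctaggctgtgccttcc
A match is a run of letters and not a site shown to be bound, and its absence says only that these letters are not in this window.

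Other genes of potassium handling were counted from 4 lists. Over all 16065 tested genes 4.14% were higher and 2.73% were lower. The lists are small, so their counts of calls are not read as a result about the lists. Of 19 other channel subunits and relatives, 18 were in the table and 6 were tested, with 0 past the threshold in either direction by edgeR's test or DESeq2 and 1, the cyclic nucleotide-gated Hcn2, at an unadjusted p under 0.05 (log2 fold change 0.62, adjusted p = 0.182). Abcc8 and Abcc9, the sulfonylurea receptors of ATP-sensitive channels, held at most 8 and 16 counts. The median log2 fold change of the 6 tested was 0.01. Of 27 pumps and cotransporters 15 were tested, 2 were higher and 1 was lower, with a median of 0.15. Slc12a2, the sodium-potassium-chloride cotransporter NKCC1, fell to 161 ± 3.53 CPM with Meis1-OE, from 328 ± 54.4 CPM with YFP-CTRL (SD, n = 3; log2 fold change -1.02, standard error 0.14, adjusted p = 0.0101 in edgeR's test), without overlap. Slc12a5, the potassium-chloride cotransporter KCC2 known from neurons, rose from 0.800 ± 0.111 to 1.72 ± 0.142 CPM (log2 fold change 1.10, adjusted p = 0.0413). Fxyd6, a regulator of the sodium pump, was counted 23, 58 and 38 times in the Meis1-OE libraries against 1, 0 and 0 times in the YFP-CTRL ones (adjusted p = 0.0095 in edgeR's test). Fxyd6 passed the filter on low counts only through the Meis1-OE libraries, in which it was high, so its call carries that limit.

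Of 32 genes of calcium entry and release 20 were tested, and Piezo2, a mechanically gated channel, was the only one past the threshold in edgeR's test. It was at 28.6, 30.8 and 28.3 CPM in the Meis1-OE libraries against 15.6, 14.7 and 15.2 CPM in the YFP-CTRL ones, narrow and far apart (log2 fold change 0.95, standard error 0.11, adjusted p = 0.00708). DESeq2 also placed Trpc1 past the threshold, as lower. The median of the list was -0.14. Of 22 genes of channel trafficking and control 19 were tested and 2 were higher, with a median of -0.04. Beside the counts of both lists stand the shares of all tested genes, 4.14% higher and 2.73% lower. Sgk1, a kinase that raises the surface level of several channels, was at 318 ± 9.61 CPM in Meis1-OE EC against 125 ± 38.2 CPM in YFP-CTRL EC (mean ± SD, n = 3; log2 fold change 1.34, adjusted p = 0.0139). DESeq2 placed Ank2 and Stk39 past the threshold as lower.

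Other cells of the artery also make potassium channels, so the levels of those cells' own markers stand beside the members. Smooth muscle markers were tested for 3 of 8 genes, and Myh11 stood at 4 to 7 counts in every library. Des was higher in Meis1-OE EC at 18 to 24 counts against 0 to 2 (adjusted p = 0.0150 in edgeR's test). It passed the filter on low counts only through the Meis1-OE libraries, so its call carries that limit. Acta2 varied from 0.206 to 19.9 CPM over YFP-CTRL libraries. The summed smooth muscle list was 203 to 238 CPM in Meis1-OE and 95.7 to 240 CPM in YFP-CTRL libraries. Of 6 fibroblast markers Pdgfra alone was tested (log2 fold change -1.47, adjusted p = 0.0598 in edgeR's test, and past the threshold in DESeq2), while Col1a1 held 1 to 8 counts, and the summed list was 11.9 to 12.03 CPM in Meis1-OE and 16.1 to 49.5 CPM in YFP-CTRL libraries. The summed macrophage list stayed at or under 1.45 CPM, with 3 of its 6 genes at 0 in all libraries. The summed neuron list, nearly all Tubb3, was 1.90 to 2.25 CPM in Meis1-OE and 2.68 to 15.9 CPM in YFP-CTRL libraries, and Tubb3 had a log2 fold change of -2.24 (adjusted p = 0.0628 in edgeR's test, and past the threshold in DESeq2). The summed cardiomyocyte list was 4.31 to 6.37 and 1.27 to 2.90 CPM, of which Tnnt2 was higher (log2 fold change 1.31, adjusted p = 0.0489). The summed proliferation list was 1986 to 2025 CPM in Meis1-OE libraries and 438, 802 and 1907 CPM in the YFP-CTRL ones. Of its 15 genes edgeR's test placed 0 past the threshold, with 2 at an unadjusted p under 0.05, and DESeq2 placed 1, Rrm2, as higher. The part of these differences in the values of the members was not tested, beyond the fit with the proliferation score as a covariate, in which Kcnn3 and Kcnk10 passed the threshold.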

How the data were processed

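Ribodepleted RNA-seq covered 3 Meis1-OE and 3 YFP-CTRL libraries of aortic EC. The table the authors deposited holds an estimated count per gene symbol and library, without normalization. The build is mm10 per the submitters' processing notes, and the aligner, the counting tool, the annotation and use of strand are not given in the sources used here. The study analysed these data with DESeq2. Replicates are described by the study as independent transductions, and the EC were bought from a supplier. The number of animals behind them is not given in the sources used here. The p-values thus measure the spread between these libraries and not between animals.

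Estimated counts (7767 to 8411 per library were not whole) were rounded. The main test was run with edgeR 4.0.16 in R 4.3.3 (TMM, filterByExpr, which kept 16065 genes, 2-group quasi-likelihood test, two-sided, Benjamini-Hochberg adjustment over all genes tested, threshold 0.05, fold changes with a prior count of 0.125, standard errors from the F statistic) and, as an alternative, DESeq2 1.42.0. The biological coefficient of variation was 0.233. Permutation of 3 libraries against 3 allows no exact two-sided p under 0.1, so single genes were tested in the model across genes. Lengths and coding sequences came from GENCODE vM1 (NCBIM37) and positions and promoters from RefSeq (GRCm38.p6, the same build as mm10), matched by symbol, with a length and a position for all 92 members. Python 3.11.15 with matplotlib 3.10.9 drew the figures. Intervals and limits of detection cover counting error only.

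The members, the subfamilies and the other gene lists were chosen with earlier results of these data known. Genes were named if they were members past the threshold or with a mean of at least 1 CPM in a condition, or genes of the other lists past the threshold, with Meis1, Pecam1, Cdh5 and proliferation genes as checks. Members named by role or by range beyond this rule were chosen after their values were seen. Tried in place of these choices were scaling by library totals or by the size factors of DESeq2, a minimum of 10 counts in every library or no filter, robust dispersions, DESeq2's test, the column letter as a replicate block, the proliferation score as a covariate, each library left out, and other thresholds. On simulated data for this comparison (16065 genes, 200 changed), edgeR made 172 calls, of which 158 were changed genes. It found 63% of those changed 2-fold and 95% of those changed 4-fold. DESeq2 made 185 calls, of which 156 were changed genes. Simulated libraries of a condition shared the same gene means, unlike the real YFP-CTRL libraries, which differed in proliferation score. The rates found may therefore not hold for the real libraries. No protein sequences were used here, and some genes of the lists are not reported here by name.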

Additional observations from a re-analysis of the deposited data

How the results depend on the processing

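With no filter, a robust fit, library totals, the size factors of DESeq2 and DESeq2's own test the same 4 members passed the threshold, 2 higher and 2 lower. With at least 10 counts in every library there was 1 higher (Kcnab2) and 1 lower (Kcnk10), since Kcnn3 and Kcnj2 were then not tested. With the proliferation score as a covariate there was 1 higher (Kcnn3) and 1 lower (Kcnk10). At a threshold of 0.01 in place of 0.05 edgeR placed 1 as higher (Kcnn3) and 0 as lower. With single libraries left out the number higher ran from 1 to 5 and the number lower from 0 to 3. Kcnn3 was the only member higher without Meis1-OE library B, Meis1-OE library C or YFP-CTRL library B, and no member was lower without any 1 of the Meis1-OE libraries or YFP-CTRL library B. Over all genes the counts moved from 665 higher and 438 lower to between 115 and 2717 higher and between 16 and 2498 lower when libraries were left out. The largest counts, 2717 and 2498, came without YFP-CTRL library C. DESeq2 called 1128 and 1115, library totals 1048 and 179, and the proliferation covariate 382 and 315.

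The column letters did not pair the libraries (correlation of deviations 0.245 for A, 0.190 for B and 0.0809 for C). Meis1-OE library C correlated best with YFP-CTRL library B (0.249). With the letter as a replicate block 2 members were higher and 1 was lower (Kcnk10), Kcnj2 having a log2 fold change of -2.44 and an adjusted p of 0.0552, and over all genes 544 were higher and 189 lower.

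Of the log2 fold changes of members under the alternatives, 16 changed sign, all of members not past the threshold. Kcnh2 (0.00) was -0.0173 with DESeq2's size factors, -0.0156 in DESeq2, -0.25 with the proliferation covariate, and from -0.16 to 0.0891 with libraries left out. Kcnk2 was -0.32, Kcnab1 0.19 and Kcnip2 0.11 with the proliferation covariate. Kcnk6 was 0.10 on library totals and from -0.27 to 0.12 with libraries left out, Kcnab1 from -0.26 to 0.0865, Kcnip2 from -0.92 to 0.0034 and Kcnd1 from -0.0035 to 0.56. The cause of these changes was not tested. The log2 fold change of Meis1 was 10.73 to 11.27 in all settings. At a mean of 2 CPM 6 members were expressed in place of 12, and 15 at 0.5 CPM. The coding length of RefSeq was not run, for want of a protein table, and that of GENCODE vM1, chosen after seeing the data, stood in for it. By coding length Kcnk6 and Kcnj2 stood above Kcnk10 in YFP-CTRL EC, unlike the order by exon length. Members with few counts in a condition, such as Kcnn3 in YFP-CTRL EC, are limited by counting error.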
